A study of Mus musculus with 2 samples.

Results

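Nanog, Dppa3, Gdf3, Apobec1 and Slc2a3 lie side by side on mouse chromosome 6, and the binding of the Nanog protein around these 5 genes, out of 21938 protein-coding genes in the GENCODE vM21 annotation, is described here. The genes were chosen by name, and every distinct Nanog peak whose middle base lay within 100 kb of the transcription start site (TSS) of 1 of them was taken, which gave 11 peaks of the 8735 on chromosomes 1 to 19, X and Y (8737 in all). Nanog occupancy was measured in Bruce-4, a line of embryonic stem cells (ESCs) from the mouse that was kept untreated in a serum medium with the cytokine LIF, by chromatin immunoprecipitation with the rabbit monoclonal antibody D1G10 and sequencing of the recovered DNA (ChIP-seq). There was 1 immunoprecipitated sample of this 1 line and 1 input sample, and only the peaks of the former were analysed here. Each peak is a pair of coordinates on the mm10 genome with no height, score or summit, so neither the strength of binding nor the read depth behind a peak can be read from it and no value below has a replicate error. A peak list holds no RNA, so the identity of the cells could not be checked against marker genes, and the absence of a peak cannot be told apart from binding below the threshold of the peak call.

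Nanog is a homeodomain transcription factor that holds ESCs in the pluripotent state, and its own gene is controlled by Oct4 and Sox2, by Nanog itself and by distal enhancers that have been described on both sides of the gene. Several of its neighbours, such as Dppa3 and Gdf3, are known to be transcribed together with it in ESCs. Dppa3 (also called Stella) is a maternal factor that protects DNA methylation in the zygote, and Gdf3 is a secreted ligand of the TGF-beta family. Slc2a3 is the glucose transporter GLUT3, and Apobec1 is the cytidine deaminase that edits the messenger RNA of apolipoprotein B.

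The peaks are named by the distance of their middle base from the Nanog TSS, negative on the Apobec1 side and positive on the Slc2a3 side. Sequences are shown for the peaks closest to Dppa3, Gdf3 and Nanog, for the wide peak between Dppa3 and Nanog, and for 3 of the 4 peaks crowded together inside Slc2a3. All are read 5′ to 3′ on the plus strand of GRCm38 (mm10), up to 300 bases around the middle of each peak, with every motif match in capitals (a match on the minus strand is shown as its reverse complement).
Peak at -98.9 kb, in a Gdf3 intron, chr6:122608460-122608708, with a Tead match: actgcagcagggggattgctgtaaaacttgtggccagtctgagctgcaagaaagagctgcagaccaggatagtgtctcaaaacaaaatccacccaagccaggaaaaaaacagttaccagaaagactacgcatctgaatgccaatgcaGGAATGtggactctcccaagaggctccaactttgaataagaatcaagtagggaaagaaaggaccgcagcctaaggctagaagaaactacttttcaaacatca
Peak at -82.8 kb, upstream of Dppa3, chr6:122624510-122624809, with a pair of octamers, of which the second runs into an Oct4-Sox2 composite: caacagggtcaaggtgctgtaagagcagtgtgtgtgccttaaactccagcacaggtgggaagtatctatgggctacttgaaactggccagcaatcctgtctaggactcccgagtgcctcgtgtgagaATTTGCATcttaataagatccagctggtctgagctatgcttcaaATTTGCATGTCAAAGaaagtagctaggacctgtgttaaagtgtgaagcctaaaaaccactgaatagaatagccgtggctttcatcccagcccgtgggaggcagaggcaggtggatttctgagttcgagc
Peak at -44.5 kb, between Dppa3 and Nanog, chr6:122662818-122663117, with a Sox match: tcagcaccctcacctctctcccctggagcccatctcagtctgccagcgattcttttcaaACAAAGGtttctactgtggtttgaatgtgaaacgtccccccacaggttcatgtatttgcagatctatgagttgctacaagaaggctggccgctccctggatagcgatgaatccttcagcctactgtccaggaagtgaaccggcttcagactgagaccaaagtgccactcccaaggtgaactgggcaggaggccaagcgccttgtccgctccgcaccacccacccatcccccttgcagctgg
Peak at -4.9 kb, upstream of Nanog, chr6:122702472-122702771, with a pair of Tead matches: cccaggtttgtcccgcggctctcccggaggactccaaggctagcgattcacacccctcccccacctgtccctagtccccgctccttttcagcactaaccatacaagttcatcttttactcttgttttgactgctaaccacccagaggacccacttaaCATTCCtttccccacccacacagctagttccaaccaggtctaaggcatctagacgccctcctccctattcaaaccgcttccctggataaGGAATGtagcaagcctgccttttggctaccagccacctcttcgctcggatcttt
Peak at +57.6 kb, in a Slc2a3 intron, chr6:122764975-122765274, with a Tead match: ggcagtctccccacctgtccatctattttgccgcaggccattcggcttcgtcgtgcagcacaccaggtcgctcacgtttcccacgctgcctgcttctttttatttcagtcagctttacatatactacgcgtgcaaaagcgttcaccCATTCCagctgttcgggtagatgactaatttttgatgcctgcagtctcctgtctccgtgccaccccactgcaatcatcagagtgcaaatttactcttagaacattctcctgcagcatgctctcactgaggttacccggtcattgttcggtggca
Peak at +58.9 kb, also in a Slc2a3 intron, chr6:122766225-122766479, with a Klf match: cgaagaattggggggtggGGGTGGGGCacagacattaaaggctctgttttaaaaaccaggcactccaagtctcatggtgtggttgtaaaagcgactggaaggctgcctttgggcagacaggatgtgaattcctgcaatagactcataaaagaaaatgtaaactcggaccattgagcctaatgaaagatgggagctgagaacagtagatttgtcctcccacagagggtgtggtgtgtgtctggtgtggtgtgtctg
Peak at +63.2 kb, also in a Slc2a3 intron, chr6:122770518-122770817, with an Esrrb match: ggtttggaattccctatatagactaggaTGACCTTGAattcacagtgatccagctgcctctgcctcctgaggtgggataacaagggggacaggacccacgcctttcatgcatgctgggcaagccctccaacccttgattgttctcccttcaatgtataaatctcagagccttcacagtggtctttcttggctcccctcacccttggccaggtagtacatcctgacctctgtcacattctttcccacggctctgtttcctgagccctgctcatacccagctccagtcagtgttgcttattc
The 250 bases upstream of the Nanog TSS, from the RefSeq promoter table of GRCm38.p6 (2 of the 5 genes, Nanog and Apobec1, matched an entry), are shown because no peak covers them although they hold an Oct4-Sox2 composite with 2 mismatches. The composite is in capitals in this promoter, chr6:122707239-122707488, plus strand: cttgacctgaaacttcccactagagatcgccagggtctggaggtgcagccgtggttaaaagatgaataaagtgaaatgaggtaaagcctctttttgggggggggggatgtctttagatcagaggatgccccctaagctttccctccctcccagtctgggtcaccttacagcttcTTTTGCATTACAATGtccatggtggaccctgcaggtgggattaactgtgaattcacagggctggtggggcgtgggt

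All 5 genes had several Nanog peaks within 100 kb of their TSS, and the 11 peaks were shared among them. Nanog had 8 peaks, Slc2a3 had 6, and Apobec1, Gdf3 and Dppa3 had 5 each. At least 1 peak within 100 kb was found for 54.4% of the 21938 protein-coding genes, whose median was 1 peak. At least 5 peaks were found for 1.92% of them (421 genes), at least 6 for 0.561% (123 genes) and at least 8 for 0.0729% (16 genes). The 5 genes are not independent cases of this count, because their windows overlap: 4 of the 11 peaks lay within 100 kb of 4 of the genes, 1 within reach of 3, 4 within reach of 2, and 2 within reach of 1. The 16 genes with as many peaks as Nanog fell into 9 loci more than 200 kb apart, and Nanog was the only 1 of the 5 genes among them.

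**Figure D1:**
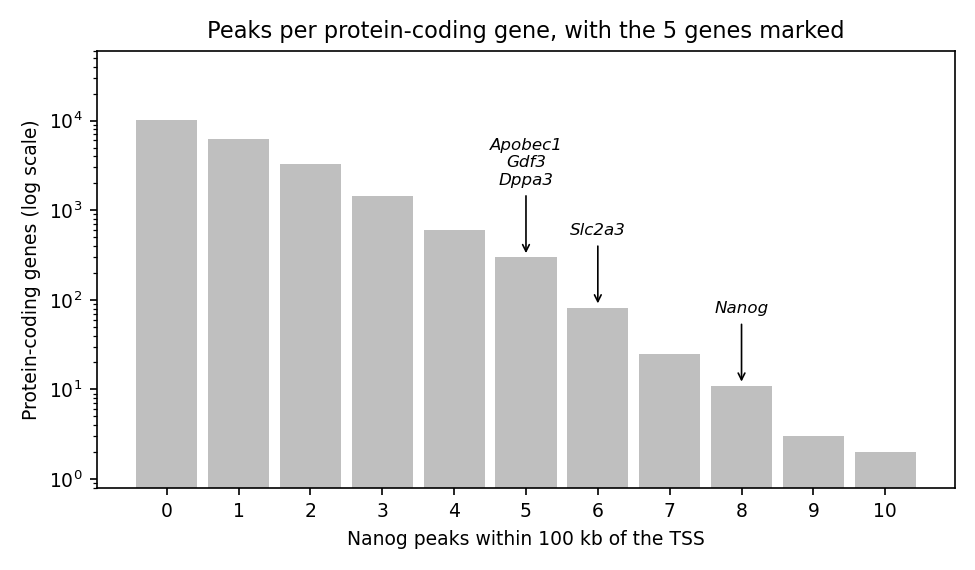
Number of protein-coding genes (vertical axis, log scale) by the number of Nanog peaks within 100 kb of the TSS (horizontal axis), with the 5 genes marked by arrows. Apobec1, Gdf3 and Dppa3 stand in the bar of 298 genes with 5 peaks, Slc2a3 in the bar of 82 genes with 6, and Nanog in the bar of 11 genes with 8.

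The TSSs of the 5 genes spanned 199.2 kb in the order Apobec1, Gdf3, Dppa3, Nanog and Slc2a3. Apobec1 and Gdf3 started 7.6 kb apart, Gdf3 and Dppa3 16.3 kb, Dppa3 and Nanog 81.1 kb, and Nanog and Slc2a3 94.2 kb. Of the 11 peaks, 8 lay between the outermost TSSs. The stretch from 100 kb before the first TSS to 100 kb after the last, chr6:122502444-122901640, held 27.6 peaks per Mb against 3.28 per Mb on the rest of chromosome 6 (479 peaks). The ratio was 8.4, with an exact 95% Poisson interval of 4.16 to 15.2 that covers counting error only and treats peaks as independent. Counted per protein-coding gene, the ratio was 2.53, since the stretch holds 10 such genes. Outside the stretch of peaks the next one was 168.3 kb away on the Apobec1 side and 178.0 kb away on the Slc2a3 side. Gaps of that length were common, with 43.4% and 41.3% of the 489 gaps between neighbouring peaks on chromosome 6 at least as long (median 122.0 kb). Between the 11 peaks the gaps ran from 0.836 to 81.2 kb, with a median of 27.5 kb.

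**Figure D2:**
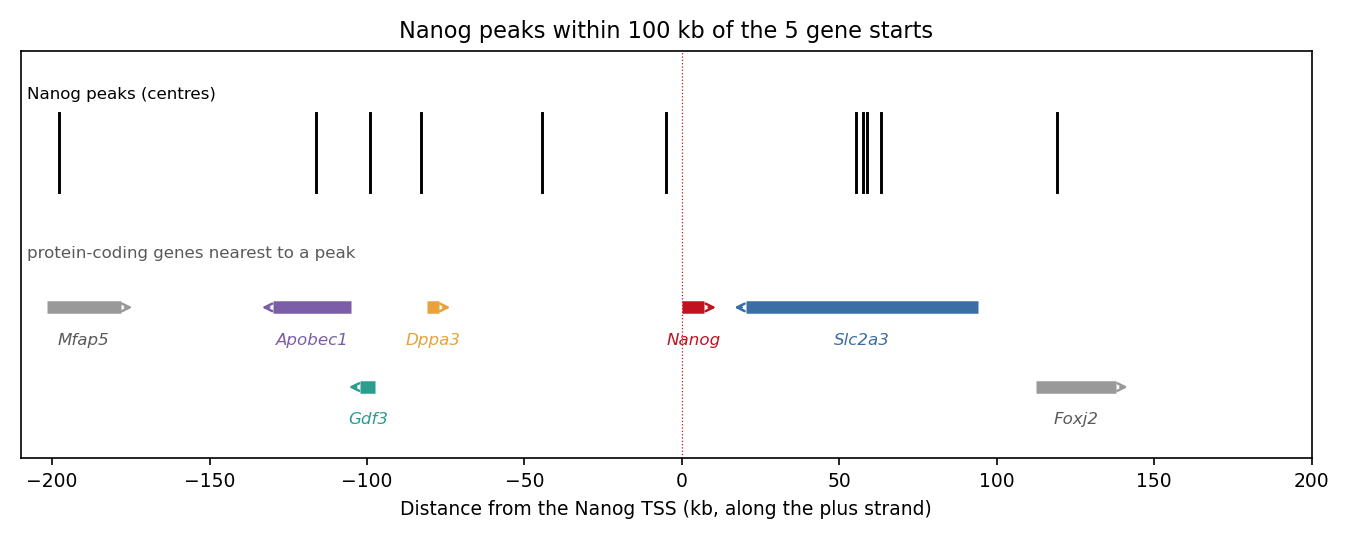
Map of the locus along the plus strand, with distance from the Nanog TSS in kb on the horizontal axis. Vertical bars are the middles of the 11 Nanog peaks, and boxes with arrowheads are the 5 genes and the other protein-coding genes nearest to a peak (Mfap5 and Foxj2), with their direction of transcription. A row of single peaks runs from -197.7 to -4.9 kb, 4 peaks stand together from +55.2 to +63.2 kb inside Slc2a3, and a last peak lies at +119.2 kb.

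Nanog (ENSMUSG00000012396.12, chr6:122707489-122714633, plus strand) had 4 peaks upstream and 4 downstream. The upstream peaks were spread out at -98.9, -82.8, -44.5 and -4.9 kb, while the downstream peaks lay together at 55.2, 57.6, 58.9 and 63.2 kb. The closest peak, chr6:122702439-122702803, was centred 4868 bp upstream of the TSS. It was intergenic, 365 bp wide, and closer to the processed pseudogene Gm10224 (3593 bp from its start) than to Nanog. A peak at least as close was found for 6.04% of protein-coding genes. Most peaks of Nanog thus lay at long range, with only 2 of its 8 peaks within 50 kb. Even that number within 50 kb was reached or exceeded by just 11.5% of protein-coding genes. The outermost peak inside the 100 kb limit was 98.9 kb from the TSS and the next one outside was 116.2 kb from it.

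The promoter sequence of Nanog held the Oct4-Sox2 composite from 76 bp upstream of the TSS, on the minus strand and with 2 mismatches. From another RefSeq start of Nanog, further downstream, the same composite began 152 bp upstream. A composite at this stringency was present in 113 of 32851 RefSeq promoters of 300 bp (0.344%). No other motif of the 12 searched matched there, and the closest peak began several kilobases further upstream, so no peak covered these letters. The Apobec1 promoter held no match to any of the 12 motifs.

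Dppa3 (ENSMUSG00000046323.8, chr6:122626410-122630272, plus strand) had its closest peak 1751 bp upstream of the TSS, at chr6:122624500-122624818. A peak at least as close was found for 3.15% of protein-coding genes. This intergenic peak of 319 bp lay even nearer to the short non-coding RNA gene Gm26168 (1112 bp from its start). It was the single peak of the 11 with an octamer or a composite. Of the 5 peaks of Dppa3, 3 were upstream (1.8, 17.8 and 35.1 kb) and 2 were downstream (36.6 and 76.2 kb). Within 50 kb there were 4, a number reached by 1.17% of protein-coding genes. The next peak outside the limit was 116.6 kb away.

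Gdf3 (ENSMUSG00000030117.5, chr6:122605403-122610087, minus strand) had the closest peak of the 5 genes, centred 1503 bp downstream of its TSS. This peak, chr6:122608460-122608708, lay in a Gdf3 intron and at 249 bp was the narrowest of the 11, with 84.1% of all peaks at least as wide. A peak at least as close was found for 2.92% of protein-coding genes. The other downstream peak was 18.8 kb away, in an Apobec1 intron, and the upstream peaks were 14.6, 52.9 and 92.5 kb away. Gdf3 shared all 3 upstream peaks with Dppa3 and with Nanog, the last of them being the peak closest to the Nanog TSS. A further peak fell just outside the limit, at 100.3 kb.

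Apobec1 (ENSMUSG00000040613.14, chr6:122577792-122602444, minus strand) had no peak within 5 kb. Its closest peak was the one in the Gdf3 intron, 6140 bp upstream of the Apobec1 TSS, a distance matched or bettered by 7.12% of protein-coding genes. Its own intron held a peak of 291 bp, chr6:122591131-122591421, which was centred 11.2 kb downstream of the TSS and overlapped an exon. The remaining peaks were 22.2 and 60.5 kb upstream and 92.6 kb downstream, the last in an intron of Mfap5, a gene of extracellular microfibrils. With a peak at 92.6 kb inside the limit and the -4.9 kb Nanog peak at 100.2 kb outside it, the count of Apobec1 turns on a small change of the limit. Measured from the nearest edge of each peak in place of the middle, Apobec1 had 6.

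Slc2a3 (ENSMUSG00000003153.10, chr6:122727809-122801640, minus strand) had no peak within 5 kb but the most within 50 kb. Its closest peak was 25.0 kb upstream, in an intron of Foxj2, a forkhead transcription factor gene, and 21.2% of protein-coding genes had a peak at least as close. The 5 downstream peaks were 31.0, 35.3, 36.5, 38.9 and 99.0 kb away. Within 50 kb Slc2a3 had 5 peaks, a number reached by 0.242% of protein-coding genes, whereas Apobec1 and Gdf3 had 3 (3.51%). The next peak outside the 100 kb limit was 138.7 kb away.

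The annotated start of Slc2a3 is that of 1 long transcript, and the other transcripts change how its peaks read. Of its 8 transcripts, 2 span the 4 intronic peaks and 6 start on the Nanog side of them. Seen from the TSS of ENSMUST00000032476.10, at position 122742745, the 4 peaks were 20.0 to 27.9 kb upstream of the gene and no longer inside it. Taking the TSS of every transcript, Slc2a3 had 7 peaks within 100 kb. Which of these starts was used in the cells was not tested.

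**Figure D3:**
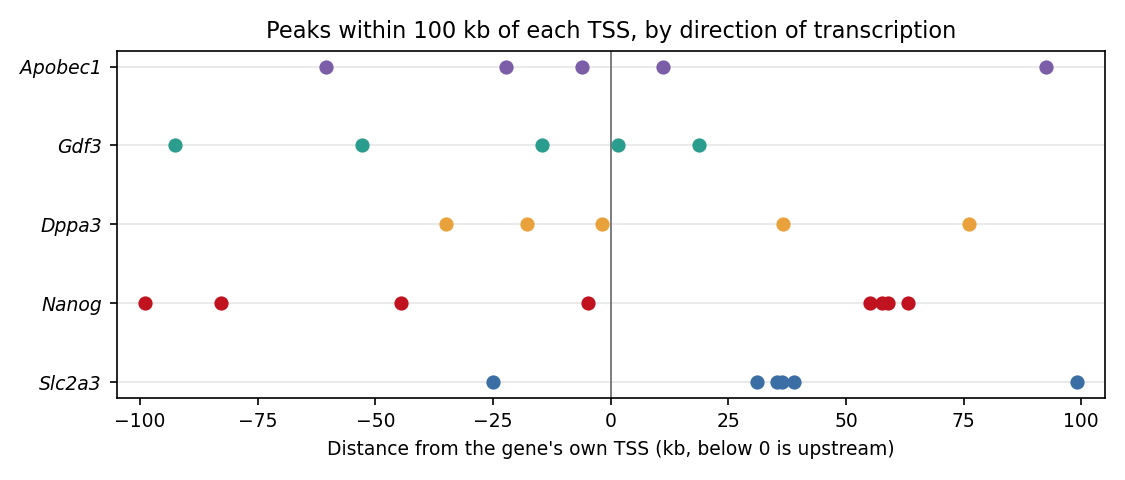
Distance of each Nanog peak within 100 kb from the TSS of its gene (horizontal axis, kb, below 0 upstream in the direction of transcription), 1 row for each of the 5 genes and 1 point for each peak. The points nearest to 0 are those of Gdf3 (1.5 kb) and Dppa3 (-1.8 kb), and the rows of Nanog and Slc2a3 each hold the same 4 crowded points.

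A proximal peak, within 5 kb of the TSS, was present at 3 of the 5 genes (Gdf3, Dppa3 and Nanog) and at 6.2% of protein-coding genes. No peak covered a TSS of the 5 genes. The median distance from TSS to closest peak was 4.87 kb for the 5 genes and 85.3 kb for protein-coding genes. Among all annotated genes, 2 of the 5 (Apobec1 and Gdf3) were nearest to at least 1 peak, beside 13.5% of protein-coding genes. Among protein-coding genes alone all 5 were, beside 24.5%. Pseudogenes and non-coding RNA genes made this difference: Gm4482 was the nearest gene of the 4 peaks in Slc2a3, Gm10420 of the -44.5 kb peak, Gm10224 of the -4.9 kb peak, Gm26168 of the -82.8 kb peak and Mir7231 of the +119.2 kb peak. For 9 of the 11 peaks the nearest protein-coding gene was 1 of the 5. This number follows in part from the rule, since the peaks were taken for lying within 100 kb of these genes. The exceptions were the outermost peaks, nearest to Mfap5 (4.0 kb) and Foxj2 (6.7 kb).

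By annotation, 8 of the 11 peaks were intronic and 3 intergenic, all 3 of the latter on the Apobec1 side of the Nanog TSS. The shares of these classes over all peaks were not computed, so these counts cannot be called high or low. The intronic peaks lay in Mfap5, Apobec1, Gdf3, Slc2a3 (4) and Foxj2. Those in Apobec1 and Foxj2 also overlapped an exon of the same gene.

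The 4 peaks inside Slc2a3 were the densest group. They ran from 122762512 to 122770838, a stretch of 8.3 kb, with gaps of 1975, 836 and 4016 bp between them. When peaks less than 12500 bp apart were chained, a distance in common use for joining enhancers, 128 peaks of the list (1.47%) belonged to a chain of 4 or more, and 4 of the 11 did. Genome-wide there were 30 such chains among 956 of at least 2 peaks. With a distance of 5 kb the same 4 peaks still formed a chain, 1 of 6 with 4 or more. With 25 kb the peaks at -116.2, -98.9 and -82.8 kb joined as well, in a second chain of 33.7 kb. This second chain runs from Apobec1 past Gdf3 to the upstream side of Dppa3. Chains were more common at 25 kb, with 325 of at least 3 peaks genome-wide and 95 of at least 4. Nanog and Slc2a3 were the only 2 of the 5 genes with the group of 4 within 100 kb, and without it they would have had 4 and 2 peaks.

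Peak widths, which depend on the peak caller, were close to those of the whole list. The 11 peaks were 249 to 528 bp wide with a median of 320 bp, beside 319 bp for all 8735. The widest was the +57.6 kb peak in Slc2a3, at 528 bp, and 5.93% of all peaks were at least as wide. Next came the intergenic -44.5 kb peak at 457 bp (12.8%). This latter peak stood alone, 37.9 kb from the neighbour towards Dppa3 and 39.2 kb from the neighbour towards Nanog, edge to edge. Its G+C content of 56.7% was the highest of the 11, which otherwise ranged down to 44.7% with a median of 48.6% (47.7% for all peaks).

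Repeat content varied more than width. Repeat-masked bases made up 69.7% of the -197.7 kb peak in Mfap5 and 54.3% of the +55.2 kb peak in Slc2a3, while the +119.2 kb peak in Foxj2 had 0.714%. Over all peaks 14.9% were masked over at least 50% of their length, and 2 of the 11 were. The +58.9 kb peak was masked over 35.3% and the +63.2 kb peak over 23.3%, so the group in Slc2a3 was not uniform. How well short reads map to these repeats was not tested.

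In a search of both strands for 12 short consensus motifs, 9 of the 11 peaks held at least 1. The share of all peaks with at least 1 of the 12 was not computed. Single motifs were common, with Sox in 28.2% and Tead in 25.4% of all peaks, so this count does not set the 11 peaks apart. A match is a match of letters, and no match says nothing about the factor. The Oct4-Sox2 composite is a Sox element, 1 spacer base and an octamer-like element in a run of 15 bases, searched by name with at most 2 mismatches. A copy was found in 1 of the 11 peaks, the -82.8 kb peak upstream of Dppa3, beside 4.12% of all peaks and 0.511% of flanking windows of the same width. The copy was centred 29.0 bp from the middle of the peak and had 1 mismatch. At that stringency the composite occurred in 54 of the 8735 peaks (0.618%). The octamer alone, ATGCAAAT, had 2 copies in this peak, 18.5 and 25.5 bp from its middle, the second within the composite, and occurred in no other of the 11 (5.72% of all peaks). In the remaining 10 the best alignment to the composite had 3 to 6 mismatches, with 3 in the Gdf3 intron and in the -44.5 kb peak and 6 in the -4.9 kb peak next to Nanog.

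The Nanog core motif, CCATTA, was found in 1 of the 11 peaks, the -197.7 kb peak in Mfap5, and in 18.1% of all peaks and 13% of flanking windows. The peaks next to Nanog, Dppa3 and Gdf3 held no copy. The extended form GCCATTAA, which contains the core, was found in 0 of 11 (exact 95% Clopper-Pearson upper limit 28.5%) and in 2.14% of all peaks. A Sox motif, CCATTGT or CCTTTGT, was present in 2 of 11, the -44.5 kb peak and the +57.6 kb peak, beside 28.2% of all peaks. In the latter it lay 247 bp from the middle, close to the edge and outside the printed bases.

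The most frequent match was the Tead motif GGAATG, in 5 of the 11 peaks (45.5%, interval 16.7 to 76.6%) beside 25.4% of all peaks, 17.5% of flanking windows and 14.7% of promoters. The interval includes the share of all peaks, so a difference was not detectable with 11 peaks. Tead factors are the DNA-binding partners of the Hippo pathway. The copy in the +57.6 kb peak of Slc2a3 was 0.5 bp from the middle, that in the -4.9 kb peak next to Nanog 10.5 bp with a second copy at 99.5 bp, and that in the Gdf3 intron 25.5 bp. In the Apobec1 intron the copy lay 47.5 bp from the middle and overlapped the only AP-1 match of the set (TGACTCA or TGAGTCA, 1 of 11 beside 8.04% of all peaks). The copy in the -44.5 kb peak was 198.5 bp from the middle, towards the edge.

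Motifs of other pluripotency factors were scattered over single peaks. The Klf motif, GCCACACCC or GCCACGCCC or GCCCCACCC or GCCCCGCCC, was found in the -197.7 kb peak and in the +58.9 kb peak of Slc2a3 (2 of 11 beside 9.0% of all peaks). The motif of the orphan receptor Esrrb, TCAAGGTCA, was found in the +63.2 kb peak of Slc2a3 (1 of 11 beside 3.53%). That of Tcf/Lef, the Wnt effectors, CTTTGAT, was found in the -44.5 kb peak (1 of 11 beside 9.1%), 158 bp from the middle. The 4 crowded peaks of Slc2a3 thus held different matches: Sox and Tead, Klf, Esrrb, and none in the +55.2 kb peak. The motif of Stat3, TTCCNGGAA, the factor downstream of LIF, was found in 0 of 11 (1.33% of all peaks), and so was the Myc E-box CACGTG (4.24%). The +119.2 kb peak in Foxj2 held no match to any of the 12 motifs. With 11 peaks every interval is wide, reaching 41.3% for a motif found in 1 of them.

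**Figure D4:**
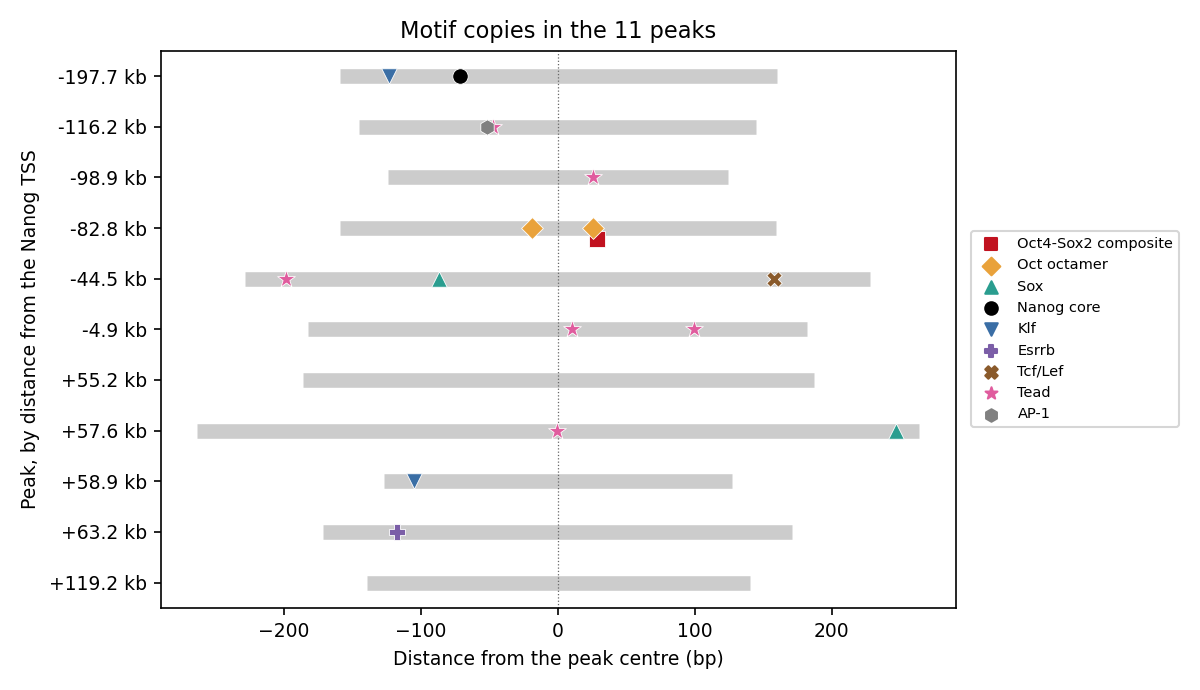
Position of each motif copy (symbols) along the 11 peaks (grey bars, 1 row each, named by distance from the Nanog TSS), with distance from the peak centre in bp on the horizontal axis. Tead copies lie 0.5, 10.5 and 25.5 bp from the centre in 3 peaks, the octamers and the composite sit together near the centre of the -82.8 kb peak, and the +55.2 and +119.2 kb peaks are empty.

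Other genes of the same stretch showed that a high count was not limited to the 5. Foxj2 and C3ar1, the receptor of a complement fragment, also had 5 peaks within 100 kb, with the closest 6.7 and 29.5 kb away. Mfap5 had 2, and Necap1, an endocytosis gene at the far edge, had 1. The pseudogenes Gm10420 and Gm10224, 11.5 and 8.5 kb upstream of Nanog, had 8 peaks each, the same number as Nanog, and Gm4482 inside Slc2a3 had 6.

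Relatives of Dppa3, Gdf3, Slc2a3 and Apobec1 elsewhere in the genome were compared as lists. Of 32 relatives, 23 had a peak within 100 kb (71.9%, beside 54.4% of protein-coding genes), and 1 had at least 5. Their median of 1 peak was that of all protein-coding genes. That gene was Dppa5a, with 5 peaks, the closest 3.2 kb from its TSS. All 4 Dppa genes had a peak, and Apobec3, a relative of Apobec1, had 3. Of 13 TGF-beta family ligands 9 had a peak, with proximal peaks at Nodal (1.9 kb), Lefty2 (4.2 kb) and Bmp4 (4.6 kb). Of 11 glucose transporter genes 6 had a peak (54.5%, at the 54.4% of all protein-coding genes), none within 5 kb and none with more than 3. Dppa2, a DNA-binding protein of ESCs, had its closest peak at 1.4 kb, so proximal peaks were found at 5 of the 32 relatives (15.6%, beside 6.2% of protein-coding genes).

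The median distance to the closest peak was 41.6 kb for the relatives and 9.3 kb for a list of regulators and partners of Nanog, a difference that was not tested. Of 20 genes, 18 had a peak within 100 kb (90%, beside 54.4% of protein-coding genes), the median was 2.5 peaks, and 6 had at least 5. Zfp281, a zinc finger partner of Nanog, had 7 peaks, Pou5f1 (Oct4) had 6, and Klf4 had 5. None of the 20 reached the 8 peaks of Nanog itself. A proximal peak was present at 8 of the 20 (40%, beside 6.2%), among them Zfp42 (0.2 kb), Pou5f1 (1.0 kb), Prdm14 (1.1 kb), Tfcp2l1 (1.3 kb), Tcf7l1 (1.7 kb), Klf2 (2.7 kb) and Sox2 (3.7 kb).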

How the data were processed

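Nanog ChIP-seq was analysed from 1 immunoprecipitated sample of Bruce-4 ESCs, and the input sample was not analysed here. The authors checked reads with FastQC, aligned them to mm10 with Bowtie2, removed low-quality, duplicate, mitochondrial and blacklisted reads with SAMtools and BEDtools, and called peaks with MACS2. They subtracted the input from signal tracks, which were not used here, but the threshold of the peak call and whether the input was its control are not given in the sources used here. The deposited values are positions only (chromosome, start and end in bp), and 123 of the 8860 lines repeat an interval, so each was counted once. Which weak sites are listed depends on that threshold and on the removal of duplicates.

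The TSS was the 5′ end of a gene in GENCODE vM21, and distances run from it to the middle base of a peak. Positions are 1-based on GRCm38, the assembly called mm10. Flanking windows had the width of the peak and lay 1 kb beyond each edge. Promoters spanned 250 bp before to 50 bp after each RefSeq start. Shares have exact 95% Clopper-Pearson intervals for counting error only. Peaks of 1 library are not replicates, so no p-value was computed. Python 3.11.15, pandas 2.3.3 and scipy 1.17.1 were used, and the counting and motif search were tested on simulated data.

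The genes named were the 5 genes, protein-coding genes and pseudogenes between their outermost TSSs or nearest to 1 of the 11 peaks, and, of both lists, genes with a peak within 5 kb and the 3 with the most peaks. Other protein-coding genes of the stretch were named after their values were seen. Some genes covered by this rule are not reported here. The 5 genes, the lists and the motifs were chosen with earlier results of these data known. Alternatives were limits of 50 and 200 kb, distance from the nearest edge, every transcript's TSS, protein-coding genes only, merging of peaks within 300 bp, other denominators of density, other mismatch limits, windows of 200 bp, and chaining within 5 and 25 kb.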

Additional observations from a re-analysis of the deposited data

How the results depend on the processing

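Of 62 values recomputed under the alternatives, 49 stayed close to the reported value and 13 did not. Close means within 1.5 times a reported count or, for shares and the density ratio, within the exact 95% interval of the reported value. With 11 peaks these intervals are wide: the composite share went from 9.09% to 27.3% at 3 mismatches (17.8% of all peaks), and within 200 bp the Sox share went from 18.2% to 9.09% and the Tead share from 45.5% to 36.4%, all inside them. With a limit of 50 kb, Apobec1 had 3 peaks, Gdf3 had 3 and Nanog had 2, and with 200 kb Apobec1, Gdf3 and Dppa3 had 10 each. Among protein-coding genes only, all 5 genes were nearest to some peak (5, against 2 among all annotated genes). Per protein-coding gene the density ratio was 2.53, against 8.4 per Mb, and it was 7.69 against all autosomes, 12.2 without the margins of 100 kb and 8.45 after merging of peaks. Allowing 1 mismatch, the octamer was in 45.5% of the 11 peaks and 40.5% of all peaks. Within 200 bp around the middle base the Klf, Esrrb and Tcf/Lef motifs were each in 0 of the 11 peaks, since their copies lay further out. Chained within 25 kb, 7 of the 11 peaks stood in chains, against 4. No paired analysis was possible because peaks of a single library were used. With positions alone, neither binding strength nor the depth behind a peak can be read, weaker sites below the threshold are not seen, and no value has a replicate error.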
